A study of Mus musculus with 11 samples.

Results

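The genes described here are those of the pancreatic islet: its hormones, the transcription factors that define endocrine cells, the proteins that process and store the hormones, and the apparatus by which beta cells sense glucose. They were taken from a list of 33 symbols. A gene counted as measured where a probe set carried its symbol and no other, and where a gene had several, the one brightest on average across the 11 arrays stood for it. This gave 31 genes of 19938 named genes on the array, of which 7 encode hormones, 8 encode transcription factors, 11 belong to hormone processing and the secretory granule, and 5 to glucose sensing. The insulin gene Ins1 and the proconvertase gene Pcsk2 had no such probe set and were not analysed here.

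RNA came from the pancreas of C57Bl6J wild-type mice, a common inbred strain. The treated group (6 samples) received 9 intraperitoneal injections of caerulein at hourly intervals, which induces acute pancreatitis, and the control group (5 samples) received sodium chloride (NaCl). The series record gives the dose of caerulein as 50 mg/kg. It counts 4 control mice, but 5 samples carry a control title, and all of them were used. The sources used here state neither the time from the last injection to tissue collection nor the age of the mice, and no label says whether the samples of a group came from different mice.

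Islets are small clusters of hormone-secreting cells scattered through the enzyme-producing exocrine tissue, and they make up a minor share of the organ. Beta cells secrete insulin and amylin, alpha cells glucagon, delta cells somatostatin, and PP cells pancreatic polypeptide. Each hormone is made as a precursor, cut by proconvertases and carboxypeptidase E, and stored in dense-core granules until glucose metabolism closes a potassium channel and calcium entry releases it. In caerulein pancreatitis the drug overstimulates the acinar cells, which make the digestive enzymes, and the comparison asks what the islet transcripts read in the same tissue. All values are log2 expression after robust multi-array averaging (RMA), and a difference subtracts the mean of the NaCl arrays from that of the caerulein arrays and is given with its standard error (SE). Since the tissue was bulk pancreas, fewer cells of a type and less RNA per cell cannot be told apart.

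The arrays differed strongly by group, and the first principal component held 62.8% of the variance. The second, with 6.56%, placed caerulein replicates 1 to 3 above 0 and replicates 4 to 6 below 0. Array medians of the log2 values were 5.35 to 5.40 for NaCl and 5.20 to 5.25 for caerulein. The median difference over all 35556 probe sets was accordingly -0.11, and over the named genes -0.13. In limma with Benjamini-Hochberg adjustment over all probe sets, 44.2% of them passed an adjusted p of 0.05, 16.4% as higher and 27.8% as lower, which is the background for every count of islet genes. Every adjusted p below comes from this fit unless another is named.

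Of the 31 islet genes, 1 rose, 16 fell and 14 did not pass the threshold. The gene that rose was Cpe, which encodes carboxypeptidase E. The share that fell was 51.6%, against 27.8% of all probe sets and 34.3% of the named genes, of which 54.6% passed and 20.3% rose, and the median difference over the 31 genes was -0.27. The level of a probe set mattered for this background. Of the 31 genes, 20 had a mean level in the middle of the range (4.29 to 6.89, levels 4 to 8 when all probe sets are ranked by mean and cut into 10 equal bins), where 37.8% of probe sets were lower and 14 of these 20 genes (70.0%) were. Another 10 lay in the 2 brightest bins, where 25.9% of probe sets were lower and 45.4% higher, and of these genes 2 were lower and 1 higher. In 8 genes every caerulein array lay below every NaCl array, as it did in 15.6% of all probe sets and 20.6% of the named genes. In Cpe alone of the 31 every caerulein array lay above, as in 12.7% of probe sets and 16.7% of the named genes.

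**Figure D1:**
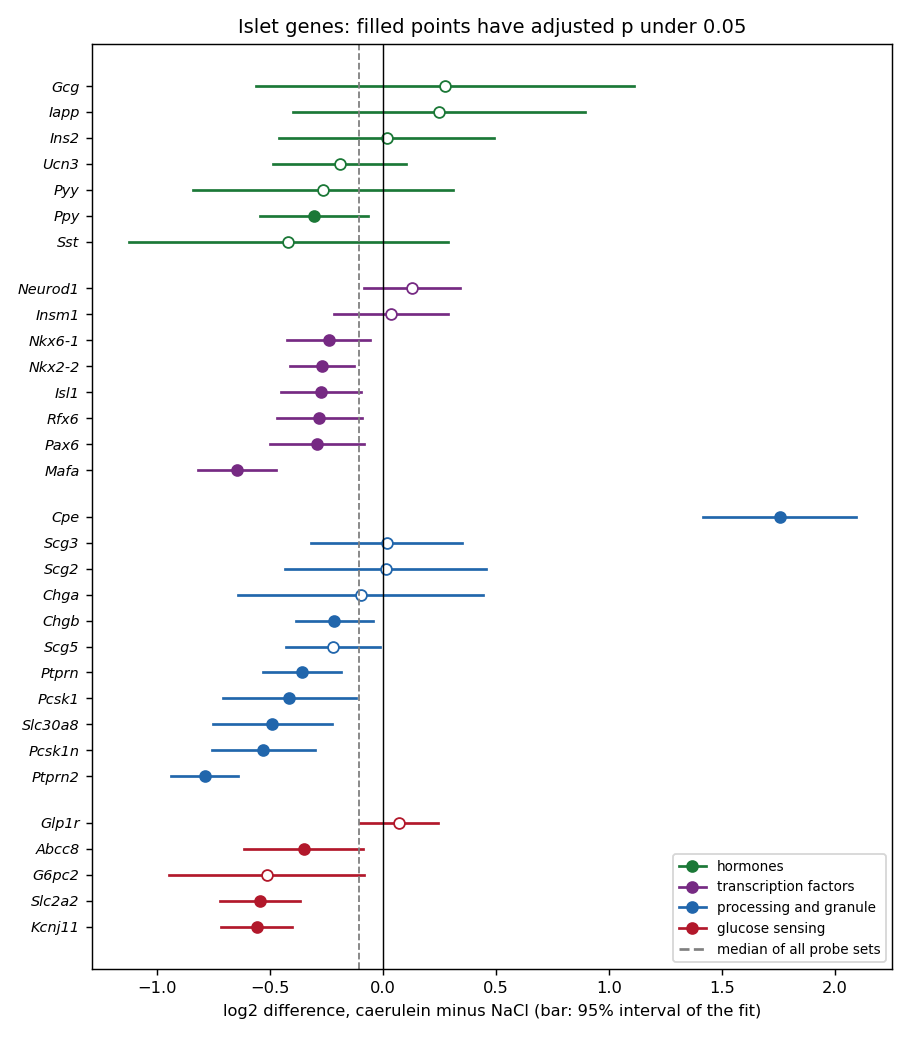
Log2 difference (caerulein minus NaCl) of the 31 measured islet genes, grouped by role, with the 95% interval of the limma fit (5 NaCl and 6 caerulein arrays). Filled points passed the adjusted threshold, and the dashed line marks the median of all probe sets, -0.11. Cpe stands at 1.76, most other filled points lie between -0.79 and -0.22, and Gcg, Sst, Iapp, Pyy, the granule gene Chga and Ins2 have the widest intervals.

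The plot of differences by role shows narrow intervals below 0 for most genes of the transcription factor, granule and glucose-sensing groups, and wide intervals across 0 for most hormone genes. How much of this is a smaller difference and how much a larger spread is shown by the hormone values themselves.

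Among the 7 measured hormone genes 1 fell, none rose and 6 did not pass the test. Their median difference was -0.19. Ins2, which encodes insulin, read 9.42, 8.89, 9.68, 9.75 and 10.06 in NaCl replicates 1 to 5, and from 9.16 to 10.14 with a median of 9.52 in the 6 caerulein arrays. The groups overlapped almost fully, with NaCl replicate 2 below every other array. The difference was 0.02 (SE 0.22, 95% interval -0.46 to 0.49, adjusted p = 0.957), which is for Ins2 alone, since Ins1 was not measured. The sign of this small difference turned under several settings, from -0.024 with array weights to -0.74 with the arrays shifted to an equal mean of 12 reference genes. Under that last scaling Ins2 passed as lower (adjusted p = 0.00676), and 5 of the 7 hormone genes did. The mean of the 12 reference genes was itself 8.42 to 8.65 in the NaCl arrays and 9.16 to 9.42 in the caerulein arrays. Holding it equal therefore lowers the difference of every probe set by the same amount. Iapp encodes amylin, which beta cells release with insulin. It read 9.50, 8.69, 9.48, 9.87 and 10.26 in NaCl, and 9.09 to 10.46 with a median of 9.85 in caerulein. Here too the groups overlapped, and the difference of 0.25 (SE 0.30, 95% interval -0.40 to 0.90, adjusted p = 0.525) did not pass and turned to -0.061 after a second quantile normalisation and to -0.51 with the reference genes held equal. Ucn3, a peptide of mature beta cells that acts on delta cells, read 4.79, 4.90, 4.76, 5.33 and 5.09 in NaCl and 4.42 to 5.07 with a median of 4.90 in caerulein. Its groups overlapped as well, and its difference was -0.19 (SE 0.14, adjusted p = 0.270).

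Gcg encodes proglucagon, the precursor of glucagon in alpha cells. It read 9.69, 9.08, 10.81, 10.89 and 11.35 in NaCl, and 9.99 to 11.29 with a median of 10.54 in caerulein. The control values alone spanned more than the caerulein values did, with replicates 1 and 2 low and 3 to 5 high. The SD of Gcg within groups, 0.75, exceeded that of 99.95% of the named genes, and its difference was 0.27 (SE 0.39, 95% interval -0.56 to 1.11, adjusted p = 0.589). With the reference genes held equal that difference turned to -0.48, and without NaCl replicate 2 to -0.046. Sst encodes somatostatin of delta cells, which restrains insulin and glucagon release. It read 8.14, 7.85, 8.72, 8.88 and 9.29 in NaCl and 8.31, 8.70, 9.11, 7.43, 7.61 and 7.78 in caerulein replicates 1 to 6. Caerulein replicates 4 to 6 were the lowest of all 11 arrays for Sst, while replicates 1 to 3 lay within the NaCl range. The difference of -0.42 (SE 0.33, 95% interval -1.13 to 0.29, adjusted p = 0.316) did not pass.

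Pyy encodes peptide YY, which in the pancreas is made by some islet cells. It read 7.51, 6.73, 8.05, 7.79 and 8.39 in NaCl and 7.12 to 7.99 with a median of 7.25 in caerulein, a difference of -0.27 (SE 0.27, adjusted p = 0.437) with overlapping groups. Ppy encodes pancreatic polypeptide and was the 1 hormone gene past the threshold. It read 6.28, 6.56, 6.68, 6.64 and 6.91 in NaCl and 6.14 to 6.57 with a median of 6.32 in caerulein. NaCl replicate 1 lay inside the caerulein range, and Ppy fell by 0.30 (SE 0.11, 1.24-fold, adjusted p = 0.0405). This call was lost without any 1 of NaCl replicates 2 to 5 or of caerulein replicates 1, 2, 4, 5 and 6 (adjusted p from 0.0548 to 0.102), and also with the arrays set to an equal median (-0.16, adjusted p = 0.294) or normalised by cyclic loess (-0.28, adjusted p = 0.0765).

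**Figure D2:**
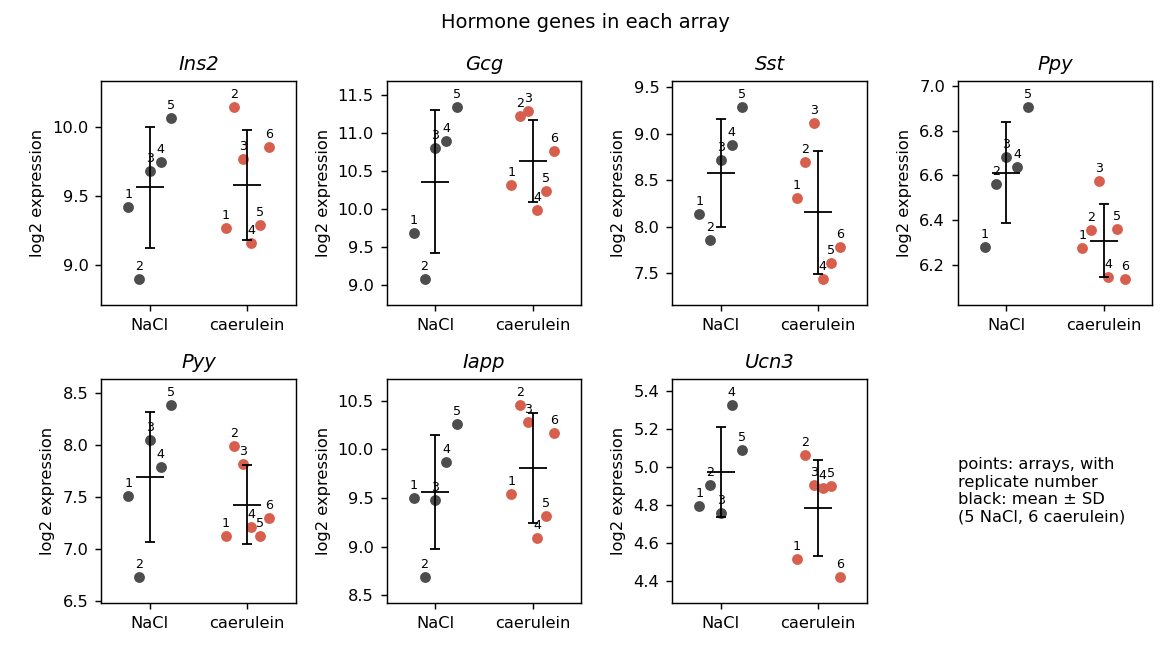
Log2 expression of the 7 measured hormone genes, 1 point per array with its replicate number (5 NaCl, 6 caerulein), with mean and SD in black; each panel has its own axis. NaCl replicate 2 is the lowest or near the lowest control array and replicate 5 the highest in most panels, and caerulein replicates 2 and 3 sit above replicate 4.

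The plot of hormone values by array shows that the same arrays were high or low for most hormones. NaCl replicate 2 was the lowest control array for 5 of the 7 hormone genes, NaCl replicate 5 the highest for 6, and the highest caerulein array was replicate 2 or 3 for all 7. The mean of Ins2, Gcg, Sst, Ppy, Pyy and Iapp was 8.42, 7.97, 8.90, 8.97 and 9.38 in NaCl replicates 1 to 5, and 8.47, 9.15, 9.14, 8.17, 8.32 and 8.66 in caerulein replicates 1 to 6. The control arrays thus spanned 1.41 and the caerulein arrays 0.98, while the group means of 8.73 ± 0.54 (SD, n = 5) and 8.65 ± 0.41 (SD, n = 6) lay close together. A share of islet tissue that differed between samples and hormone transcription that differed between mice cannot be told apart in these arrays.

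To describe how closely each gene followed the hormones, its deviations from the group means were correlated with the mean deviation of these 6 hormone genes over the 11 arrays, leaving the gene itself out where it was 1 of the 6. These coefficients describe arrays that share their RNA and carry no p. Pearson r was 0.97 for Gcg, 0.93 for Pyy, 0.92 for Ins2, 0.91 for Iapp, 0.88 for Sst, 0.64 for Ppy and 0.36 for Ucn3. Over all 31 islet genes the median r was 0.52, and 12 reached 0.8. The 31 include the 6 genes of the hormone mean itself. Over 58 further islet genes, described below, the median r was only 0.21, and 2 reached 0.8. Over the named genes the median r was -0.04, and 0.431% reached 0.8. The 12 among the 31 were Ins2, Gcg, Sst, Pyy and Iapp among the hormones, the transcription factor gene Pax6, the granule genes Pcsk1n, Chga, Scg2, Scg3 and Slc30a8, and the glucose-sensing gene G6pc2.

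Within the 6 caerulein arrays alone, all 21 pairs of hormone genes correlated above 0, with a median Pearson r of 0.63 (0.07 to 0.97). None of the 21 pairs passed an adjusted p under 0.05 in exact two-sided permutation tests of Pearson r or Spearman rho, and 6 had an unadjusted Pearson p under 0.05. The closest pair was Gcg and Iapp with r = 0.97 (exact permutation p = 0.00556, adjusted over the 21 pairs 0.117) and rho = 0.94 (exact permutation p = 0.0167, adjusted 0.175). Without the 2 arrays farthest from the median of Gcg its r was 0.99. Ins2 and Iapp, both beta-cell products, followed with r = 0.96 (exact permutation p = 0.0111, adjusted 0.117), rho = 0.89 (exact permutation p = 0.0333, adjusted 0.175) and 0.95 without the 2 farthest arrays. The same step turned 7 of the 21 pairs negative, 5 of them pairs with Ucn3 (Gcg and Ucn3 went to -0.83), and Gcg and Sst went from 0.85 to 0.34. The relations of these 8 pairs therefore rest on the outermost arrays. Other pairs weakened as well, such as Sst and Ppy from 0.79 to 0.25, while Ppy and Iapp went from 0.43 up to 0.62. The arrays left out were the farthest for the first gene of a pair only, and few arrays remained.

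**Figure D3:**
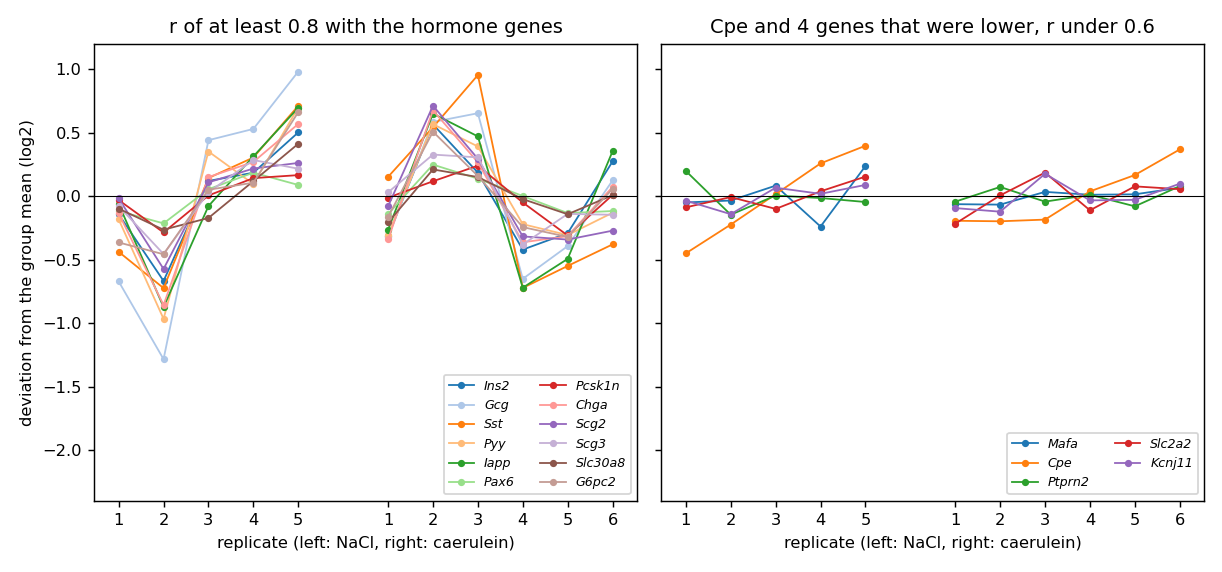
Deviation of each gene from its group mean (log2) in the 5 NaCl and 6 caerulein arrays. Left, the 12 islet genes with r of at least 0.8; right, Cpe and 4 genes that were lower (Mafa, Ptprn2, Slc2a2, Kcnj11), with r under 0.6. Lines only join the points of a gene, since replicates have no order. On the left most lines dip in NaCl replicate 2 and caerulein replicate 4, where Pax6 and Slc30a8 stay near their caerulein means, and on the right the lines lie closer to 0 apart from Cpe.

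The plot of deviations sets the genes that moved with the hormones from array to array beside 5 others. The SD within groups was 0.42 for Ins2 and 0.75 for Gcg, but 0.16 for Pax6 and 0.18 for Pcsk1n. Among the 5 it was between 0.10 and 0.13 for Mafa, Ptprn2, Slc2a2 and Kcnj11, and 0.29 for Cpe.

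Because the array-to-array component is shared, each hormone was also compared with Ins2 on the same array, a ratio added after the data had been seen. Of the 6 ratios, none passed in exact two-sided permutation tests adjusted over the 6. Relative to Ins2, Gcg differed by 0.26 (exact permutation p = 0.299, adjusted 0.358), Iapp by 0.23 (exact permutation p = 0.0952, adjusted 0.225), Pyy by -0.28 (exact permutation p = 0.0693, adjusted 0.225) and Sst by -0.44 (exact permutation p = 0.113, adjusted 0.225). Ppy differed by -0.32 (exact permutation p = 0.251, adjusted 0.358) and Ucn3 by -0.21 (exact permutation p = 0.420), which turned to 0.25 after a second quantile normalisation. No ratio to Ins2 differed by more than the spread of the samples allows to be called.

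The promoters of 3 hormone genes that varied together, from alpha, delta and beta cells, are printed to show what lies before their starts. RefSeq promoters (assembly GRCm38.p6) were in the table used here for 24 of the 31 genes, and the 250 bases before the start were searched on both strands for 4 short motifs, which are in capitals where found: TAAT, the core bound by homeodomain factors such as Pax6, Isl1 and the Nkx proteins; CATCTG, an E-box of the kind bound by Neurod1; TGACGTCA, the cyclic AMP response element; and TATAAA, the TATA box. Gcg lies on the minus strand (chr2:62483654-62483903), Sst on the minus strand (chr16:23890845-23891094) and Iapp on the plus strand (chr6:142298175-142298424).
Gcg: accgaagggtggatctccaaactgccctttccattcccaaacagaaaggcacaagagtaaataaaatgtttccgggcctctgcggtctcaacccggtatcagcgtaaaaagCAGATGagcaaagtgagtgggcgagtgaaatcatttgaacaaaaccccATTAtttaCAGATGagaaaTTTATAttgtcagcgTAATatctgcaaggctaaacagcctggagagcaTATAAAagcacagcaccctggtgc
Sst: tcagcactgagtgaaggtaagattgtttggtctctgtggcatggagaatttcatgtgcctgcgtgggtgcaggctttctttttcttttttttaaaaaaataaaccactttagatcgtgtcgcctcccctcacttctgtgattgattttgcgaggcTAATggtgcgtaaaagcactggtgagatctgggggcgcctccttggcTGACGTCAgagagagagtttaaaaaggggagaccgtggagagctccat
Iapp: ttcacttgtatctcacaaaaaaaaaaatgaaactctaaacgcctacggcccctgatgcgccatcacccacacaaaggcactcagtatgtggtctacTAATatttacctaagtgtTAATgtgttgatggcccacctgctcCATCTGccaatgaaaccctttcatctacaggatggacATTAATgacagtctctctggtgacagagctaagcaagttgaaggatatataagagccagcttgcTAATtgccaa

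Gcg held TAAT, the E-box and the TATA box, Sst held TAAT and the cyclic AMP response element, and Iapp held TAAT and the E-box. TAAT was in 15 of the 24 islet promoters (62.5%) and in 54.9% of all 32851 promoters of that length. The E-box was in 4 of 24 (16.7%, against 14.4%) and the TATA box in 2 of 24, Gcg and Ppy (8.33%, against 12.4%). The cyclic AMP response element was in 5 of 24 (20.8%, against 1.55%), in Sst with its first base 48 bases before the start, and in Pax6, Pcsk1, Chgb and Scg2. These 4 are shown as windows of 40 bases around the element, on the plus strand for Pax6 (chr2:105668804-105668843), Pcsk1 (chr13:75089763-75089802) and Chgb (chr2:132781554-132781593) and on the minus strand for Scg2 (chr1:79440071-79440110). A match describes letters only and is not evidence of binding.
Pax6: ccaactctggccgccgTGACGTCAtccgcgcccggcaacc
Pcsk1: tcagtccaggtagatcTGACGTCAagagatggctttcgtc
Chgb: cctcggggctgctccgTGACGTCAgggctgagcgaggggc
Scg2: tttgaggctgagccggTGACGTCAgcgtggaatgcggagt

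The elements began 76 bases before the start in Pax6, 78 in Pcsk1, 72 in Chgb and 68 in Scg2. The 5 genes that share the element did not share a call: Pax6, Pcsk1 and Chgb were past the threshold as lower, and Sst (-0.42) and Scg2 (0.01) were not past it. Their r with the hormone genes ranged likewise, from 0.30 for Chgb and 0.47 for Pcsk1 to 0.82 for Pax6 and 0.88 for both Sst and Scg2.

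Of the 8 transcription factor genes 6 fell, none rose and 2 did not pass, with a median difference of -0.27. Mafa, which activates insulin transcription in mature beta cells, read 6.75, 6.77, 6.89, 6.57 and 7.04 in NaCl and 6.09 to 6.22 with a median of 6.17 in caerulein. The 2 groups did not overlap, and the caerulein arrays lay within a narrow band (6.16 ± 0.05, SD, n = 6, against 6.80 ± 0.18, n = 5). Mafa fell by 0.65 (SE 0.08, 95% interval -0.82 to -0.47, 1.57-fold, adjusted p = 3.0e-05), with an r of only 0.26 with the hormone genes.

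Nkx2-2, a homeodomain factor needed for beta-cell identity, read 5.97, 6.18, 6.02, 6.04 and 6.11 in NaCl and 5.65 to 5.88 with a median of 5.82 in caerulein. Its groups did not overlap either, and it fell by 0.27 (SE 0.07, 1.21-fold, adjusted p = 0.00529). Nkx6-1, a beta-cell homeodomain factor, read 6.47, 6.63, 6.42, 6.65 and 6.43 in NaCl and 6.07 to 6.49 with a median of 6.32 in caerulein. The highest caerulein array lay inside the NaCl range, and Nkx6-1 fell by 0.24 (SE 0.08, adjusted p = 0.0338). Isl1, a LIM-homeodomain factor of all endocrine cell types, read 5.79, 5.81, 5.89, 5.71 and 5.60 in NaCl and 5.30 to 5.65 with a median of 5.51 in caerulein, and fell by 0.27 (SE 0.08, adjusted p = 0.0161). Pax6, a paired-box factor that activates hormone genes, read 5.12, 5.02, 5.29, 5.42 and 5.32 in NaCl and 4.80 to 5.19 with a median of 4.88 in caerulein. It fell by 0.29 (SE 0.10, adjusted p = 0.0262) with some overlap, and was the 1 factor that followed the hormone genes closely (r = 0.82). Rfx6, a winged-helix factor of endocrine development, read 4.30, 4.46, 4.56, 4.67 and 4.60 in NaCl and 4.08 to 4.44 with a median of 4.24 in caerulein, and fell by 0.28 (SE 0.09, adjusted p = 0.0198).

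These 5 smaller falls, of Nkx2-2, Nkx6-1, Isl1, Pax6 and Rfx6, stood between -0.29 and -0.24, in bins of the level where the median of all probe sets was between -0.21 and -0.05. All 5 calls were lost with the arrays set to an equal median and after cyclic loess, where the 5 differences lay between -0.20 and -0.09, whereas that of Mafa was kept. Leaving out 1 array also ended the call of Rfx6 (NaCl replicate 4, adjusted p = 0.0505), of Nkx6-1 (NaCl replicates 2 and 4 and caerulein replicates 5 and 6, adjusted p from 0.0704 to 0.0795) and of Pax6 (NaCl replicates 3, 4 and 5 and caerulein replicates 1, 5 and 6, adjusted p from 0.0521 to 0.0657).

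The other two factors did not pass. Neurod1, a basic helix-loop-helix activator of insulin transcription, read 3.59, 3.77, 3.67, 3.67 and 3.72 in NaCl and 3.56 to 4.12 with a median of 3.80 in caerulein, a difference of 0.13 (SE 0.10, adjusted p = 0.313). It lay among the dimmest probe sets, and its call went both ways with the scaling, as lower with the reference genes held equal (-0.63, adjusted p = 4.9e-04) and as higher with an equal median (0.27, adjusted p = 0.0421). Insm1, a zinc-finger factor of endocrine differentiation, read 6.51, 6.57, 6.63, 6.49 and 6.51 in NaCl and 6.25 to 7.05 with a median of 6.55 in caerulein. Its controls were tight (SD 0.06) and its caerulein arrays spread on both sides of them, with a difference of 0.03 (SE 0.12, adjusted p = 0.832) that turned negative under 4 settings other than leaving out an array, and with the reference genes held equal it passed as lower (-0.72, adjusted p = 1.6e-05).

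Of the 11 measured genes of hormone processing and the granule, 1 rose, 6 fell and 4 did not pass, with a median difference of -0.22. The processing enzymes went in opposite directions. Cpe, whose product trims basic residues from prohormones after the proconvertase cut, read 6.27, 6.49, 6.73, 6.97 and 7.11 in NaCl and 8.27 to 8.84 with a median of 8.40 in caerulein. Every caerulein array lay more than 1 log2 unit above every NaCl array, and Cpe rose by 1.76 (SE 0.16, 95% interval 1.42 to 2.09, 3.38-fold, adjusted p = 1.5e-06). Its r with the hormone genes was 0.33. Carboxypeptidase E is also made outside the endocrine system, and some markers of other pancreatic cell types were higher too. Of the 8 duct markers 6 were higher and 1, Muc1, was lower (array means of 6.49 to 6.71 in NaCl and 7.73 to 8.05 in caerulein), of the 9 macrophage markers 5 (5.77 to 5.90 against 6.41 to 7.26), of the 8 endothelial markers 3 (6.36 to 6.53 against 6.53 to 6.74), and of the 9 stellate cell and fibroblast markers 3 were higher and 1, Lum, lower (6.77 to 7.14 against 6.73 to 7.42). Of the named genes 20.3% were higher, and of probe sets in the 2 brightest bins of the level 45.4%. The shares of endothelial (37.5%) and of stellate cell and fibroblast markers (33.3%) lay between these. The part of these cell types in the rise of Cpe was not tested.

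Pcsk1 encodes the proconvertase that makes the first cut in proinsulin. It read 6.13, 6.35, 6.40, 6.89 and 6.28 in NaCl and 5.67 to 6.24 with a median of 6.03 in caerulein, and fell by 0.42 (SE 0.14, 1.33-fold, adjusted p = 0.0251). The call of Pcsk1 was lost without NaCl replicate 4, caerulein replicate 4 or caerulein replicate 6 (adjusted p from 0.0503 to 0.0511), and with an equal median (-0.27) or cyclic loess (-0.33). Pcsk1n, which encodes proSAAS, an inhibitor of that convertase, read 7.17, 6.92, 7.21, 7.35 and 7.37 in NaCl and 6.36 to 6.91 with a median of 6.67 in caerulein. The groups came close without overlapping, and Pcsk1n fell by 0.53 (SE 0.11, 1.44-fold, adjusted p = 0.00142). Scg5 encodes the 7B2 chaperone of the other proconvertase. It read 5.91, 5.74, 5.88, 5.93 and 5.67 in NaCl and 5.35 to 5.89 with a median of 5.63 in caerulein, a difference of -0.22 that did not pass (SE 0.10, adjusted p = 0.0764). Scg5 passed as lower with an equal 75th percentile (-0.28, adjusted p = 0.0258), with the reference genes held equal (-0.98, adjusted p = 1.0e-06) and without caerulein replicate 3 (-0.28, adjusted p = 0.0224).

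The granins, acidic proteins that help form the granule core, were mostly in the group that followed the hormones. Chga, which encodes chromogranin A, read 7.58, 6.85, 7.86, 7.98 and 8.28 in NaCl and 7.25 to 8.29 with a median of 7.49 in caerulein. Its r with the hormones was 0.96, the groups overlapped, and the difference was -0.10 (SE 0.25, adjusted p = 0.772), turning to 0.048 with an equal median and to 0.044 without NaCl replicate 5. Scg2 (secretogranin II) read 5.91, 5.35, 6.04, 6.15 and 6.19 in NaCl and 5.60 to 6.65 with a median of 5.76 in caerulein, a difference of 0.01 (SE 0.20, adjusted p = 0.969). Scg3 (secretogranin III, which links chromogranin A to the granule membrane) read 4.71, 4.33, 4.82, 5.07 and 5.00 in NaCl and 4.42 to 5.13 with a median of 4.75 in caerulein, a difference of 0.02 (SE 0.15, adjusted p = 0.942). Both had overlapping groups and an r near 0.9, and with the reference genes held equal their differences turned to -0.75 and -0.74 and passed as lower (adjusted p = 0.00591 and 0.00110), as did Chga (-0.86, adjusted p = 0.00607). Chgb (chromogranin B) differed from Chga, Scg2 and Scg3 in its low r of 0.30, which was close to the 0.32 of Scg5. Chgb read 5.49, 5.54, 5.51, 5.45 and 5.79 in NaCl and 5.19 to 5.45 with a median of 5.37 in caerulein, and fell by 0.22 (SE 0.08, 1.16-fold, adjusted p = 0.0405). In its bin of the level the median difference of all probe sets was nearly the same, -0.21. NaCl replicate 5 stood apart from the other controls of Chgb, and without it the call was lost (-0.16, adjusted p = 0.100). The call was also lost without NaCl replicate 2 or 3 or any 1 of caerulein replicates 3 to 6 (adjusted p from 0.0525 to 0.0853), and after cyclic loess (-0.03), a second quantile normalisation (-0.07) or an equal median (-0.07).

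The genes of 3 granule membrane proteins were lower in every caerulein array than in every control. Ptprn2 encodes phogrin, a phosphatase-like protein of the granule membrane and an autoantigen of type 1 diabetes. It read 8.48, 8.14, 8.29, 8.27 and 8.24 in NaCl and 7.41 to 7.57 with a median of 7.48 in caerulein. The lowest control lay far above the highest caerulein array, and Ptprn2 fell by 0.79 (SE 0.07, 95% interval -0.94 to -0.64, 1.73-fold, adjusted p = 1.3e-06), the largest fall among the 31 genes on the deposited values. This was in the brightest bin of probe sets, where the median difference was 0.12. Its relative Ptprn (IA-2, another granule autoantigen) read 5.93, 6.09, 6.03, 5.99 and 5.94 in NaCl and 5.47 to 5.86 with a median of 5.59 in caerulein, and fell by 0.36 (SE 0.08, 1.28-fold, adjusted p = 0.00282). The call of Ptprn just missed the threshold with an equal median (-0.21, adjusted p = 0.0545), and again when cyclic loess was applied (-0.21, adjusted p = 0.0576). Slc30a8 encodes the zinc transporter ZnT8, which loads the granule with the zinc that crystallises insulin. It read 5.41, 5.24, 5.33, 5.62 and 5.92 in NaCl and 4.81 to 5.22 with a median of 5.01 in caerulein. The lowest control lay just above the highest caerulein array. Slc30a8 followed the hormone genes (r = 0.83), and it fell by 0.49 (SE 0.12, 1.40-fold, adjusted p = 0.00592), a call lost after cyclic loess (-0.29, adjusted p = 0.0839).

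Of the 5 glucose-sensing genes 3 fell, none rose and 2 did not pass. Their median difference was -0.51, the lowest of the 4 groups. Slc2a2 encodes GLUT2, the glucose transporter of rodent beta cells. It read 6.06, 6.14, 6.05, 6.19 and 6.30 in NaCl and 5.39 to 5.79 with a median of 5.63 in caerulein. The groups did not overlap, and Slc2a2 fell by 0.55 (SE 0.08, 95% interval -0.72 to -0.37, 1.46-fold, adjusted p = 1.5e-04). The ATP-sensitive potassium channel, which closes when glucose is metabolised, has 2 subunits. Its pore, Kcnj11 (Kir6.2), read 6.49, 6.39, 6.60, 6.55 and 6.62 in NaCl and 5.85 to 6.15 with a median of 5.94 in caerulein. Kcnj11 had no overlap and fell by 0.56 (SE 0.07, 95% interval -0.72 to -0.40, 1.47-fold, adjusted p = 4.6e-05). Its regulatory subunit Abcc8 (SUR1, the sulfonylurea receptor) read 6.21, 6.50, 6.57, 6.28 and 6.57 in NaCl and 5.81 to 6.42 with a median of 6.08 in caerulein. Abcc8 overlapped and fell by 0.35 (SE 0.12, 1.28-fold, adjusted p = 0.0327). Its call was lost without any 1 of NaCl replicates 2, 3 and 5 or caerulein replicates 1, 4 and 5 (adjusted p from 0.0622 to 0.0767), with an equal median (-0.20) and after cyclic loess (-0.28).

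G6pc2, a glucose-6-phosphatase of beta cells that opposes glucokinase, read 5.63, 5.54, 6.05, 6.10 and 6.66 in NaCl and 5.16 to 5.99 with a median of 5.43 in caerulein. The groups overlapped and the difference of -0.51 (SE 0.20, 95% interval -0.95 to -0.08) narrowly missed the threshold (adjusted p = 0.0520). With array weights it passed (-0.56, adjusted p = 0.0380), as it did with an equal 75th percentile (-0.58, adjusted p = 0.0280), without NaCl replicate 1 (-0.61, adjusted p = 0.0353), NaCl replicate 2 (-0.63, adjusted p = 0.0254) or caerulein replicate 2 (-0.62, adjusted p = 0.0224). Glp1r, the receptor of the incretin GLP-1, read 8.04, 7.99, 7.73, 7.95 and 7.82 in NaCl and 7.81 to 8.12 with a median of 7.95 in caerulein. Of the 31 genes it was the 1 with a clearly negative coefficient against the hormones (r = -0.59). The groups overlapped with a difference of 0.07 (SE 0.08, adjusted p = 0.507). The sign of Glp1r turned to -0.094 after cyclic loess, to -0.69 with the reference genes held equal and to -0.23 after a second quantile normalisation, and in the latter pair of settings Glp1r passed as lower (adjusted p = 9.5e-07 and 0.0198).

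**Figure D4:**
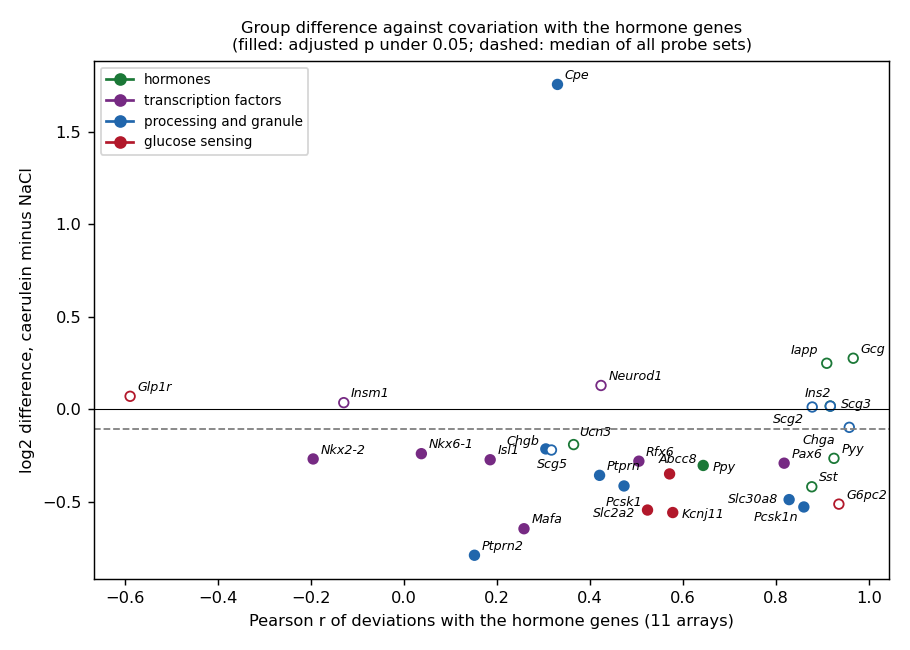
Log2 difference (caerulein minus NaCl, vertical axis) of each of the 31 islet genes against its Pearson r with the hormone genes over 11 arrays (horizontal axis). Filled points passed the adjusted threshold and the dashed line is the median of all probe sets. Of the 12 genes at an r of at least 0.8, 9 are unfilled; Ins2, Chga, Scg2 and Scg3 lie near 0 and the others on both sides of it, from -0.53 to 0.27, whereas Ptprn2, Mafa, Slc2a2 and Kcnj11 lie lower at an r under 0.6.

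The plot of difference against covariation sets both measures side by side. Of the 12 genes with an r of at least 0.8, Pax6, Pcsk1n and Slc30a8 fell, and the other nine did not pass. As a check chosen after the data had been seen, the 6-gene hormone mean of each array was added to the fit as a covariate, which compares the groups at an equal hormone level. Among all probe sets 16.3% were then higher and 27.5% lower. Of the 25 islet genes outside the covariate, 1 was higher and 15 were lower, as many as without it. G6pc2 now passed (-0.46, SE 0.09, adjusted p = 0.00132), and Chgb no longer did (-0.21, adjusted p = 0.0504). The SE of Chga went from 0.25 to 0.09 while its difference stayed near 0 (-0.03, 95% interval -0.22 to 0.17). For Pcsk1n the difference was -0.50 (SE 0.07, adjusted p = 1.4e-04) and for Slc30a8 -0.46 (SE 0.08, adjusted p = 8.6e-04). The group means of the covariate lay close together (8.73 in NaCl and 8.65 in caerulein), so adding it could move the differences only a little. All 25 differences moved by less than their SE, at a high r and at a low one. Of the genes with an r under 0.6, Ptprn2 stood at -0.79, Mafa at -0.64, Kcnj11 at -0.55, Slc2a2 at -0.54 and Cpe at 1.77.

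Which of the 17 calls depend on how the arrays are scaled was examined with 5 rescalings. Of these calls 6 were kept under all 5 and under each of 20 alternative settings, which leave out the mean of all probe sets of a gene because each of the 31 genes has 1 probe set: Cpe as higher, and Mafa, Pcsk1n, Ptprn2, Slc2a2 and Kcnj11 as lower. Leaving out any 1 array kept these and the calls of Nkx2-2, Isl1, Ptprn and Slc30a8, 10 in all. The median difference of all probe sets was -0.11 as deposited, 0.04 with an equal median, -0.01 after cyclic loess, -0.05 after a second quantile normalisation, -0.17 with an equal 75th percentile and -0.86 with the mean of the 12 reference genes held equal. Over the same settings the number of islet genes called lower was 16, 6, 5, 13, 18 and 28. The median of the glucose-sensing genes was -0.51 as deposited, -0.37 with an equal median, -0.35 after cyclic loess, -0.42 after a second quantile normalisation, -0.58 with an equal 75th percentile and -1.27 with the reference genes held equal. The hormone median was -0.19, -0.04, -0.15, -0.29, -0.25 and -0.95 in that order.

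**Figure D5:**
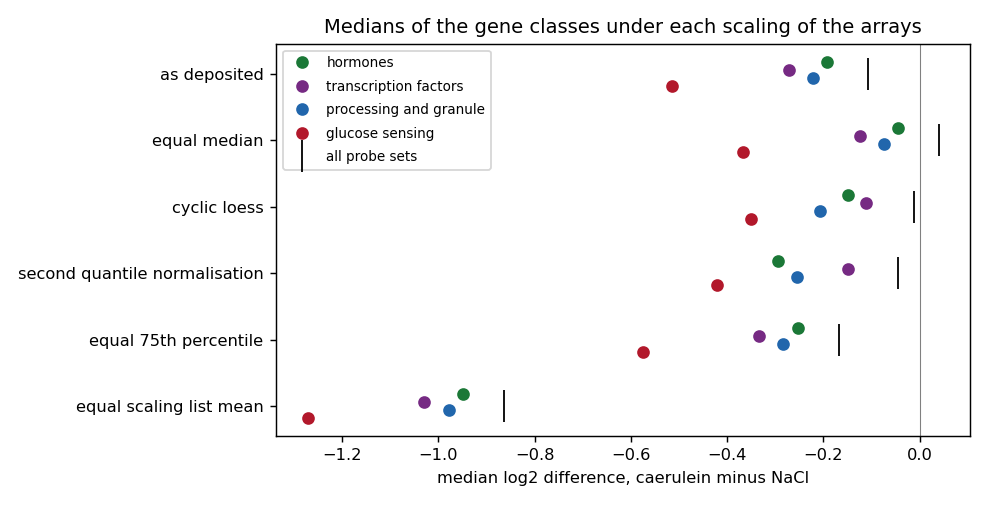
Median log2 difference (caerulein minus NaCl) of the hormone, transcription factor, processing and granule, and glucose-sensing genes under the deposited values and 5 rescalings, with the median of all probe sets as a black bar. The 4 gene groups lie below the bar under every scaling, and the glucose-sensing genes lie lowest, from -0.35 to -1.27. Only cyclic loess and the second quantile normalisation could change the distance of a group from the bar. The other rescalings shift all probe sets of an array equally.

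The plot of medians by scaling shows that the groups shift with all probe sets and that each group stays below their median under these scalings. Rescalings that shift all probe sets of an array equally could not have changed a group's place relative to that median. Cyclic loess and the second quantile normalisation could have, and under both each group stayed below it. The hormones did not stay below the median of all probe sets when some single arrays were left out. Their median was -0.103 against -0.113 of all probe sets without NaCl replicate 4, and -0.092 against -0.106 without NaCl replicate 5.

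Beside these genes, 58 of 67 further islet genes were measured, of which 1 was higher and 36 (62.1%) lower, with a median difference of -0.28. Of all probe sets 27.8% were lower, and of the named genes 34.3%. Most of the 58 lay in levels 4 to 8, where 37.8% of probe sets were lower. Of the 13 measured transcription factors 11 were lower. Pdx1, the factor that drives pancreas formation and later insulin expression, read 6.51 to 6.81 in NaCl and 5.72 to 6.12 in caerulein and fell by 0.79 (SE 0.09, 1.73-fold, adjusted p = 1.2e-05). Mnx1, a beta-cell homeodomain factor, fell by 0.54 (SE 0.09, adjusted p = 2.7e-04). Of the 18 other peptide and granule genes 11 were lower. Rab27a, a small GTPase of granule exocytosis that acinar cells also use, fell by 1.57 (SE 0.09, 2.98-fold, adjusted p = 1.6e-08), and Ttr, transthyretin of alpha cells, fell by 0.82 (SE 0.19, adjusted p = 0.00364). Of the 11 exocytosis genes 5 were lower (45.5%), a share near that of all probe sets in levels 4 to 8. Among them were Rph3al, a Rab effector (-0.50, SE 0.09, adjusted p = 5.3e-04), and Pclo, a scaffold of the release site (-0.44, SE 0.10, adjusted p = 0.00429), whose call was lost after cyclic loess (adjusted p = 0.0818).

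Of the 16 channels and receptors 1 was higher and 9 (56.25%) lower, against 20.3% and 34.3% of the named genes. Cacna1d, an L-type calcium channel subunit, fell by 0.64 (SE 0.08, adjusted p = 3.0e-05). Sstr2, a somatostatin receptor, fell by 0.54 (SE 0.20, adjusted p = 0.0444), a call lost without any 1 of NaCl replicates 1 to 4 or caerulein replicates 1 to 3 (adjusted p from 0.0605 to 0.105). Chrm3, the muscarinic receptor M3 of beta and acinar cells, rose by 0.30 (SE 0.09, adjusted p = 0.0195), but the call was lost without NaCl replicate 5 (adjusted p = 0.0518), after a second quantile normalisation or cyclic loess, and the sign turned to -0.46 with the reference genes held equal.

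Several of these genes are read in other cell types as well, so marker lists of other cells, including gut epithelium, stand beside the counts. For comparison, 27.8% of all probe sets and 34.3% of the named genes were lower. Of 16 acinar markers 8 were lower and none higher, with array means of 12.74 to 12.89 in NaCl and 12.02 to 12.16 in caerulein. Of 11 peripheral neuron markers 5 were lower (5.12 to 5.29 against 4.98 to 5.08), of 6 Schwann cell markers 3 (5.39 to 5.54 against 5.15 to 5.37), of 11 gut epithelium and enteroendocrine markers 7 (4.86 to 4.96 against 4.56 to 4.74), of 7 lymphocyte markers 4 (5.14 to 5.31 against 4.86 to 5.13) and of 6 adipocyte markers 2 (5.18 to 5.51 against 4.97 to 5.50). The share lower was 63.6% for gut, 57.1% for lymphocyte, 50.0% for acinar and for Schwann cell, 45.5% for neuron and 33.3% for adipocyte markers. It was 12.5% for duct and 11.1% for stellate cell and fibroblast markers, and no macrophage or endothelial marker was lower. The 51.6% of the 31 islet genes was thus not particular to islet genes. No marker is at 0 on this scale, which has no true zero. Over the 11 arrays the r of list means with the hormone genes was -0.07 for acinar, 0.04 for neuron and 0.36 for Schwann cell markers. It was -0.17 for gut, 0.63 for lymphocyte and -0.10 for adipocyte markers. For duct it was -0.36, for macrophage -0.45, for endothelial -0.08 and for stellate cell and fibroblast markers 0.06. The lymphocyte r lay above those of the lists of further islet genes (0.45 to 0.57). The part of these cell types in the lower islet counts was not tested.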

How the data were processed

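The authors deposited 1 log2 expression value for each probe set on each array. The method RMA and the R packages limma and oligo are named per the submitters' processing notes, without versions. As usually run, RMA corrects background, quantile-normalises and summarises probes, so small changes can be compressed and levels of different probe sets are not comparable. No detection calls were used, so it is unknown which dim probe sets exceed background. Symbols came from the platform annotation, where 21789 of 35556 probe sets carried 1 symbol, 1621 several and 12146 none listed. Of the single-symbol probe sets 21698 matched RefSeq (GRCm38.p6) and 0 were renamed. Promoters came from a RefSeq table of that assembly.

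Caerulein (6 arrays) was compared with NaCl (5 arrays) in limma 3.58.1 under R 4.3.3 (lmFit, eBayes, two-sided), with Benjamini-Hochberg adjustment over all 35556 probe sets at 0.05. Every measured member is named in the text. From each list of further islet genes the 2 largest rises and the 2 largest falls past the threshold are named, and outside the lists the 10 genes most like the hormone genes. The members and all gene lists were chosen with earlier results of these data known. Since no label ties samples to separate mice, p-values reflect only how far these samples spread, which may be technical. Precision is limited by the number of arrays.

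Alternatives were a trended robust prior, array weights, 5 rescalings, leaving out the dimmer 50% of probe sets, a replicate block, each array left out and the mean of all probe sets of a gene. Replicate numbers did not pair the samples (correlation of same-numbered deviations from -0.052 to 0.060). The fit was tested on simulated data. Ratios of hormones to Ins2, the hormone covariate and the fit without the 2 arrays of lowest weight were added after the data had been seen.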

Additional observations from a re-analysis of the deposited data

Results flagged for a closer look

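In 1 of the 62 groups tested (31 genes in 2 conditions), 1 array stood far from the others of its group. For Chgb, NaCl replicate 5 read 5.79, while the next control read 5.54, a gap of 0.73 of the range of the 5 controls. Chance alone marks about 1 group in 20 by this criterion. NaCl replicate 5 was also the highest control for 17 of the 31 islet genes. Without it Chgb differed by -0.16 and no longer passed (limma adjusted p = 0.100).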

How the results depend on the processing

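Differences that turned sign were all among genes not past the threshold, except Chrm3. The mean of the 12 reference genes was higher in every caerulein array than in every NaCl array, so holding it equal lowers every difference. With it held equal, the probe sets higher numbered 1637 and the probe sets lower 30882. Then 28 islet genes were lower with a median of -1.03, and 3 hormone pairs passed. Under that scaling the differences of Ins2 (-0.74), Gcg (-0.48), Iapp (-0.51), Neurod1 (-0.63), Insm1 (-0.72), Scg2 (-0.75), Scg3 (-0.74), Glp1r (-0.69) and Chrm3 (-0.46) turned negative. With an equal median, the probe sets lower numbered 4024, the islet genes past the threshold were 2 higher and 6 lower (median -0.12), and Chga turned to 0.048. After cyclic loess, 5467 probe sets and 5 islet genes were lower, with Ins2 at -0.15 and Glp1r at -0.094. After a second quantile normalisation Ins2 (-0.29), Iapp (-0.061), Insm1 (-0.031), Glp1r (-0.23) and the ratio of Ucn3 to Ins2 (0.25) turned. With an equal 75th percentile Ins2 (-0.045), Insm1 (-0.027), Scg2 (-0.050) and Scg3 (-0.046) turned, with array weights Ins2 (-0.024), Scg2 (-0.037) and Scg3 (-0.0375), and without both arrays of lowest weight (NaCl replicate 2 and caerulein replicate 1) Ins2 (-0.088), Scg2 (-0.12) and Scg3 (-0.10). Leaving out the dimmer 50% of probe sets left 6446 lower, since fewer were tested. Where no construction shows it, the cause was not tested. Leaving out each array in turn, the islet genes called lower numbered 11 to 17, fewest without NaCl replicate 4, caerulein replicate 5 or caerulein replicate 6. The differences then ranged from -0.15 to 0.14 for Ins2, -0.046 to 0.52 for Gcg, -0.31 to 0.0435 for Chga, -0.13 to 0.079 for Scg2, -0.098 to 0.092 for Scg3 and -0.061 to 0.0997 for Insm1. The trended robust prior changed no call among the 31 genes, and the mean of all probe sets of a gene could not, since each has 1 probe set. The replicate numbers do not pair the samples, and with the replicate as a block 10 islet genes were lower, with Ins2 at -0.039 and Insm1 at -0.061; 5452 probe sets were then higher and 7909 lower, and the islet median was -0.24. Signal over background was not available to judge dim probe sets such as Neurod1 and Rfx6.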

Other observations

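Among genes outside the islet list, 10 were named for the closest likeness to the hormone genes, by Pearson r of their deviations from the group means over the 11 arrays. The closest was Shprh (r = 0.95), followed by Resp18 and Themis3 (both 0.91), Tecpr2 (0.90), Cltrn (0.89), and Sppl2c, Cntnap5c, Pot1b, Ccdc114 and Pms2 (all 0.88). Of these, 2 are islet genes on the lists used here. Resp18 encodes a protein of endocrine secretory granules, and Cltrn encodes collectrin, a membrane protein of beta cells. Resp18 read 4.39 ± 0.18 (SD, n = 5) in NaCl and 4.23 ± 0.25 (n = 6) in caerulein, a difference of -0.15 (SE 0.12, limma adjusted p = 0.343). Cltrn read 4.49 ± 0.46 in NaCl and 4.54 ± 0.37 in caerulein, a difference of 0.04 (SE 0.22, limma adjusted p = 0.883). Both therefore stood with Ins2 and Chga, in that they varied between arrays and did not pass between groups. The SD within groups was 0.41 for Cltrn and 0.13 for Shprh, so a high r also occurred in genes that varied little. Of the 10 genes 5 fell (Shprh, Themis3, Sppl2c, Ccdc114 and Pms2), with differences from -0.46 to -0.27. The likeness was measured over all named genes and only the closest are given, so a high r among them is what the choice selects.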
